A study of Mus musculus with 20 samples.

Results

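The cold-inducible RNA-binding and heat shock genes were followed in the livers of obese, leptin-deficient male mice (ob/ob). The set holds 10 genes: Cirbp and Rbm3, the chaperone genes Hsph1, Dnajb1, Hspa8, Hsp90aa1, Chordc1, Hspd1 and Hspe1, and Hsf1, the main heat shock transcription factor. They were chosen by their measured array signals, because Cirbp was higher and chaperones were lower in mice breathing PM2.5, fine airborne particles, than in mice breathing filtered air. That contrast is therefore given as a description with no test. The probe table assigned a probe set to 8 of the 10 genes, 1 each, out of 19505 genes with a probe set. It listed none for Hspa8, the constitutive cytosolic HSP70, or for Hsf1, which were not analysed here. All 8 measured genes passed the filter on dim signals and were among the 11844 genes tested.

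Total liver RNA was measured on 20 arrays, 1 per mouse, in 4 groups of 5 mice. One group had PM2.5 and metformin, the antidiabetic drug, in the drinking water at a dose set by body weight, and is called the combined group. The other groups had PM2.5 alone, metformin alone, or filtered air alone. All mice carried the ob/ob genotype and were killed after 2 weeks. They were housed at 22 °C and 55% humidity with a 12-h light cycle. The labels give 6 hours per day in the exposure chamber only for the PM2.5 mice, so particles and time in the chamber cannot be told apart. No air is named for the metformin mice. Body temperature, chamber temperature and hour of collection are not given in the labels. Mice are numbered within a group in the order of the samples, and equal numbers pair no mice.

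The cold-inducible proteins CIRBP and RBM3 bind RNA, and their transcripts accumulate when mammalian cells are cooled mildly and decline when they are warmed. The heat shock response runs the other way: HSF1, held inactive by chaperones, is released when unfolded protein builds up, binds heat shock elements in DNA and switches on chaperone genes. In liver, body temperature oscillates over the day and drives daily rhythms of both Cirbp and heat shock genes in opposite phase.

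Signals were log2 values, and the mean 95th percentile of the negative-control probe sets was 8.36. Arrays 2 and 4 of the combined group stood apart, with negative-control medians of 4.79 and 4.69, against 4.34 to 4.59 on the other 18 arrays. Correlations within the combined group went down to 0.972, against 0.985 to 0.989 as the lowest of each other group. By mean correlation with its own group combined array 5 was the lowest of all (0.981), followed by array 2 (0.983) and array 4 (0.985), although its negative-control median of 4.44 was in the range of the rest. Without array 5 the same numbers of the 8 genes passed as with it, 4 against metformin and 1 against PM2.5. Counts that rest on combined arrays are given with and without arrays 2 and 4. The 8 hepatocyte markers, Alb and Apoa1 among them, were all above the negative controls' 95th percentile. The log2 of their signal summed on the linear scale was 21.01 to 21.18 in every mouse.

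Cirbp is on chromosome 10, at chr10:80165990-80172786 of build GRCm38.p6. Its log2 signal was 8.01, 8.95, 9.15, 8.27 and 8.96 in combined mice 1 to 5, 9.71, 10.51, 9.54, 9.30 and 9.41 in PM2.5 mice, 9.54, 8.78, 7.61, 6.54 and 7.003 in metformin mice, and 7.19, 7.13, 7.13, 7.99 and 7.64 in filtered-air mice. All 5 PM2.5 mice lay above all 5 filtered-air mice and above all 5 combined mice. The metformin mice covered most of the range of the study, with mice 1 and 2 within the range of the combined and PM2.5 groups and mice 4 and 5 below every filtered-air mouse. The group means were 8.67 ± 0.50 in the combined group, 9.70 ± 0.48 with PM2.5, 7.89 ± 1.24 with metformin and 7.42 ± 0.38 in filtered air (SD, n = 5 each). The means of the metformin and filtered-air groups lay below the negative controls' 95th percentile, so low Cirbp levels are close to background. The order from low to high was filtered air, metformin, combined and PM2.5, and in no pair of neighbours did the difference pass the test (limma, adjusted p = 0.571, 0.208 and 0.107 in that order).

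The Cirbp promoter is shown because the letters TCCCCGCC, reported as a mild-cold response element of this gene, stand near its far end. RefSeq's promoter table (GRCm38.p6) covers 250 bases before to 50 bases after each start. The 250 bases before 1 annotated start of Cirbp, on the plus strand at chr10:80167589-80167838, are written 5′ to 3′ with that element in capitals.
Cirbp: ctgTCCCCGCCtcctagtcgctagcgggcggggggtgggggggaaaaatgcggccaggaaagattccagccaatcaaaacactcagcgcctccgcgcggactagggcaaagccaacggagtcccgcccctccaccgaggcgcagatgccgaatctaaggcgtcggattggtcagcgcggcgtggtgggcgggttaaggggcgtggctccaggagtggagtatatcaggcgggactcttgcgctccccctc
The element lies at chr10:80167592-80167599, with its first base at -247 relative to the start. TCCCCGCC or its reverse complement GGCGGGGA was found in 5.382% of 32851 promoter windows. Among the 6 listed genes with a record (Cirbp, Hsph1, Dnajb1, Chordc1, Hspd1 and Hspe1) it was also found in Dnajb1, from base 35 of an alternative start, counted as 1.

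Rbm3, on the X chromosome at chrX:8138975-8145880, encodes the other cold-inducible RNA-binding protein. Its signal was 15.16, 15.48, 15.21, 15.16 and 15.13 in combined mice, 15.36, 14.92, 14.87, 15.09 and 14.75 in PM2.5 mice, 15.68, 15.30, 14.96, 13.89 and 14.06 in metformin mice, and 14.74, 14.54, 14.26, 14.89 and 14.62 in filtered-air mice. As for Cirbp, metformin mice 1 and 2 were the highest of their group and mice 4 and 5 the lowest, and mouse 4 was the highest of the filtered-air group. All 5 combined mice lay above all 5 filtered-air mice, while every other pair of groups overlapped. The combined and filtered-air groups were not compared over all genes. How common their separation is was therefore not counted, here or for Hsp90aa1 and Chordc1 below. The mean was 15.23 ± 0.14 in the combined group, 14.997 ± 0.24 with PM2.5, 14.78 ± 0.78 with metformin and 14.61 ± 0.23 in filtered air (SD, n = 5 each).

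**Figure D1:**
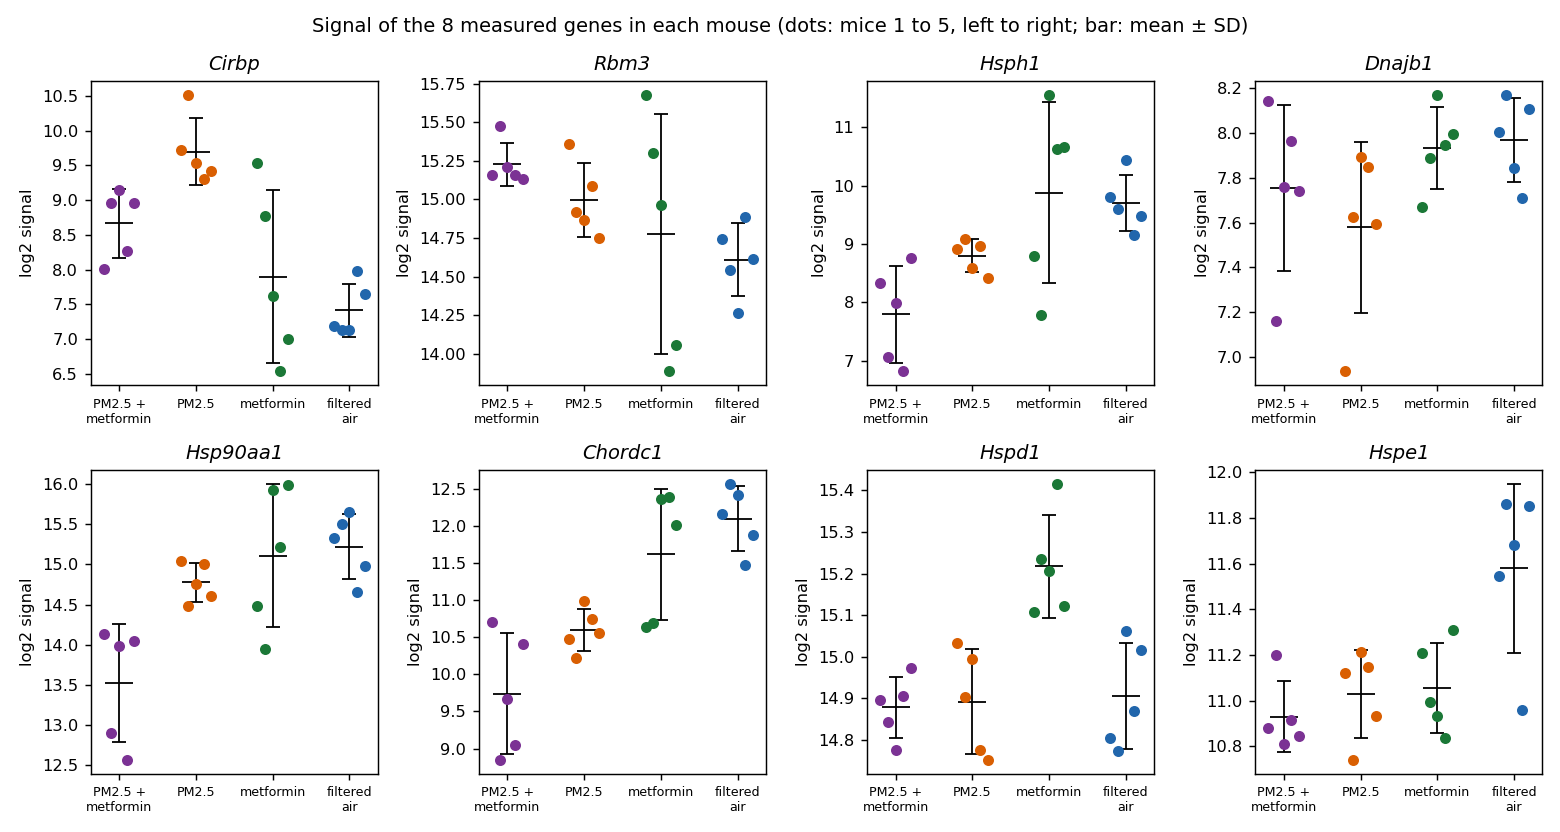
Log2 signal (vertical axis, 1 scale per panel) of the 8 measured genes in the combined (PM2.5 + metformin), PM2.5, metformin and filtered-air groups, with 1 dot per mouse in the order 1 to 5 and bars for the mean ± SD. For Cirbp the 5 PM2.5 mice lie between 9.30 and 10.51, above all filtered-air mice. By SD the metformin mice spread most for Cirbp, Rbm3, Hsph1, Hsp90aa1 and Chordc1.

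Hsph1 encodes HSP110, the nucleotide exchange factor that restarts the HSP70 cycle, and lies at chr5:149616843-149636498. Its signal was 8.33, 7.06, 7.98, 6.82 and 8.76 in combined mice, 8.91, 9.09, 8.60, 8.97 and 8.41 in PM2.5 mice, 8.80, 7.77, 11.56, 10.63 and 10.66 in metformin mice, and 9.81, 9.59, 10.45, 9.16 and 9.48 in filtered-air mice. The metformin mice split as for Cirbp but the other way up: mice 1 and 2 were low and mice 3, 4 and 5 were above every filtered-air mouse. All PM2.5 mice lay below all filtered-air mice, and the 2 lowest values of the study were those of combined mice 2 and 4.

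Hsp90aa1, at chr12:110691036-110696395, encodes the stress-inducible cytosolic HSP90. Its signal was 14.13, 12.89, 13.99, 12.56 and 14.04 in combined mice, 15.04, 14.48, 14.76, 15.01 and 14.61 in PM2.5 mice, 14.48, 13.94, 15.93, 15.22 and 15.997 in metformin mice, and 15.33, 15.50, 15.65, 14.65 and 14.98 in filtered-air mice. The combined mice lay below all PM2.5 and all filtered-air mice, again with mice 2 and 4 lowest. Metformin mice 1 and 2 were the lowest of their group.

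Chordc1, at chr9:18292267-18314000, encodes an HSP90 co-chaperone also called CHP-1 or morgana. Its signal was 10.71, 8.85, 9.67, 9.05 and 10.42 in combined mice, 10.48, 10.22, 10.99, 10.75 and 10.55 in PM2.5 mice, 10.64, 10.70, 12.37, 12.39 and 12.01 in metformin mice, and 12.16, 12.57, 12.42, 11.47 and 11.88 in filtered-air mice. Both groups with PM2.5 lay below all filtered-air mice. Metformin mice 1 and 2 sat at the level of the PM2.5 mice, and the other metformin mice at that of filtered air.

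Dnajb1 encodes HSP40, the co-chaperone that hands unfolded protein to HSP70, and lies at chr8:83608175-83612653. Its signal was between 6.94 and 8.17 in all mice, below the negative controls' 95th percentile, and the groups overlapped in every pair. The mean was 7.75 ± 0.37 in the combined group, 7.58 ± 0.38 with PM2.5, 7.93 ± 0.18 with metformin and 7.97 ± 0.19 in filtered air (SD, n = 5 each).

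Hspd1 and Hspe1 encode HSP60 and HSP10, the ring and the lid of the mitochondrial chaperonin, and start head to head on chromosome 1. Hspd1 (chr1:55077833-55088243) had signals of 14.90, 14.84, 14.77, 14.90 and 14.97 in combined mice, 15.03, 14.90, 14.99, 14.78 and 14.75 in PM2.5 mice, 15.11, 15.24, 15.21, 15.42 and 15.12 in metformin mice, and 14.81, 14.77, 15.06, 14.87 and 15.02 in filtered-air mice. The metformin mice lay above every mouse of the other groups. Hspe1 (chr1:55088148-55091317) had signals of 10.88, 11.20, 10.81, 10.91 and 10.85 in combined mice, 11.12, 10.74, 11.21, 11.15 and 10.93 in PM2.5 mice, 11.21, 10.995, 10.93, 10.84 and 11.31 in metformin mice, and 11.54, 11.86, 11.68, 10.96 and 11.85 in filtered-air mice. Here 4 of the 5 filtered-air mice lay above all other mice, and filtered-air mouse 4 lay among them. Within groups the deviations of Hspd1 and Hspe1 were nearly unrelated over the 20 mice (r = -0.06), although the genes share their promoter region and their annotated spans overlap.

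That promoter is shown because the windows of both genes hold the same run of heat shock units. A heat shock element was searched on both strands as 3 units, TTC and GAA in alternation, each set apart from the next by any bases NN. The 250 bases before the Hspe1 start, on the plus strand at chr1:55087898-55088147, are written 5′ to 3′ with the element in capitals.
Hspe1: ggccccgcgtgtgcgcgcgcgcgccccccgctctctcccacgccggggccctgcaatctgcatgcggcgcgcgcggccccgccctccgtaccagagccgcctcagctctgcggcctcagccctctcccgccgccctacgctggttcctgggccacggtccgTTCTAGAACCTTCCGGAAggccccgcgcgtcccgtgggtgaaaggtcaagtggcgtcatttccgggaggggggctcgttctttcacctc
The 18-base element lies at chr1:55088059-55088076, with its first base at -89 relative to the Hspe1 start. Read on the minus strand, the same bases begin at -144 relative to an annotated Hspd1 start. The elements of 3 other records are set out for comparison, each on the strand of its gene and with every base in capitals.
Hspd1: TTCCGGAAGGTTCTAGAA
Chordc1: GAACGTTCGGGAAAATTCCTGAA
Hsph1: TTCTGGAAAGTTC
The Chordc1 element (chr9:18292263-18292285, plus strand) spans the annotated start, and the Hsph1 element (chr5:149636288-149636300, minus strand) begins at base 37, with the first annotated start counted as 1. Such a run of 3 units was found in 0.603% of the 32851 windows, and in 4 of the 6 listed genes with a record. A match shows only that the letters are there.

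The set was chosen on the contrast between PM2.5 and filtered air. Cirbp was 2.28 ± 0.41 higher with PM2.5 on the log2 scale (SE), and Rbm3 0.39 ± 0.25 higher. For Cirbp all 5 filtered-air mice lay below the negative controls' 95th percentile of 8.36, so no fold is given for it. Chordc1 was lower with PM2.5 by a log2 difference of -1.50 ± 0.37, Hsph1 by -0.90 ± 0.51, Hspe1 by -0.55 ± 0.16, Hsp90aa1 by -0.44 ± 0.35 and Dnajb1 by -0.39 ± 0.18. Hspd1 differed by -0.01 ± 0.11. As a description only, since the choice of genes bears on these counts and nothing is read from them, 3 of the 8 genes (Cirbp, Chordc1 and Hspe1) lay past the limma threshold, where 5.17% of all genes tested did. Groups did not overlap for Cirbp, Hsph1 and Chordc1, and for 6.94% of all genes.

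The comparison of the combined group with metformin asks the same question in mice given the drug. Its difference is taken between groups outside the contrast that chose the genes. The genes and the tests were, however, chosen with earlier results of these data known. The PM2.5 and filtered-air arrays also enter the error of this comparison through the variance that all groups share. Of the 8 genes, 4 passed the test, all lower in the combined group (limma, adjusted over all genes), where 16.3% of all genes tested passed, 6.63% as falls. On the log2 scale Hsph1 fell by 2.09 ± 0.51 (adjusted p = 0.00869), Chordc1 by 1.88 ± 0.37 (3.69-fold, adjusted p = 0.00246) and Hsp90aa1 by 1.59 ± 0.35 (3.01-fold, adjusted p = 0.00523). Hspd1 fell by 0.34 ± 0.11 (1.27-fold, adjusted p = 0.0366). The combined mean of Hsph1, 7.79, lay below the negative controls' 95th percentile of 8.36, as did 4 of the 5 combined mice and metformin mouse 2, so no fold is given for it. Hspd1 passed in 3 of 10 fits with 1 mouse left out, and missed the threshold with quantile normalization (adjusted p = 0.0869) and with the negative-control median as a covariate (adjusted p = 0.076). It was the gene whose groups did not overlap, with all 5 combined mice below all metformin mice, a pattern that 3.77% of all genes showed.

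The cold-inducible genes did not pass in that comparison. The Cirbp difference was 0.77 ± 0.41 (adjusted p = 0.208), with a 95% interval of -0.08 to 1.62. That of Rbm3 was 0.45 ± 0.25 (adjusted p = 0.230, interval -0.07 to 0.97). Without metformin mouse 1, whose Cirbp of 9.54 was the highest of its group, Cirbp was 1.18 higher in the combined group (adjusted p = 0.0294) and Rbm3 0.67 higher (adjusted p = 0.0494). That was the 1 fit of 10 with 1 mouse left out in which either gene passed. Without metformin mouse 4, the lowest of its group for both genes, Cirbp was 0.43 higher (adjusted p = 0.499) and Rbm3 0.23 higher (adjusted p = 0.556). Dnajb1 differed by -0.18 ± 0.18 (adjusted p = 0.551, interval -0.56 to 0.20) and Hspe1 by -0.13 ± 0.16 (adjusted p = 0.641, interval -0.46 to 0.21). The median difference was -0.96 over the 6 chaperone genes and 0.02 over all genes tested.

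Leaving out combined arrays 2 and 4, which had the lowest Hsph1, Hsp90aa1 and Chordc1 of their group, left 1 of the 8 genes past the threshold, beside 4.21% of all genes. Chordc1 then fell by 1.36 (adjusted p = 0.0453), while Hsph1 differed by -1.52 (adjusted p = 0.117), Hsp90aa1 by -1.06 (adjusted p = 0.0836) and Hspd1 missed the threshold (adjusted p = 0.129). With the compared groups fitted alone, Hsph1 and Hspd1 also missed it (adjusted p = 0.0568 and 0.088). All 4 groups share 1 residual variance per gene in the fit. By SD the metformin mice varied most for Cirbp, Rbm3, Hsph1, Hsp90aa1 (0.90) and Chordc1 (0.88). The combined group came second for Hsp90aa1 (0.74) and Chordc1 (0.82). For these genes, errors of contrasts with the metformin group can therefore be too small and those of other contrasts too large.

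**Figure D2:**
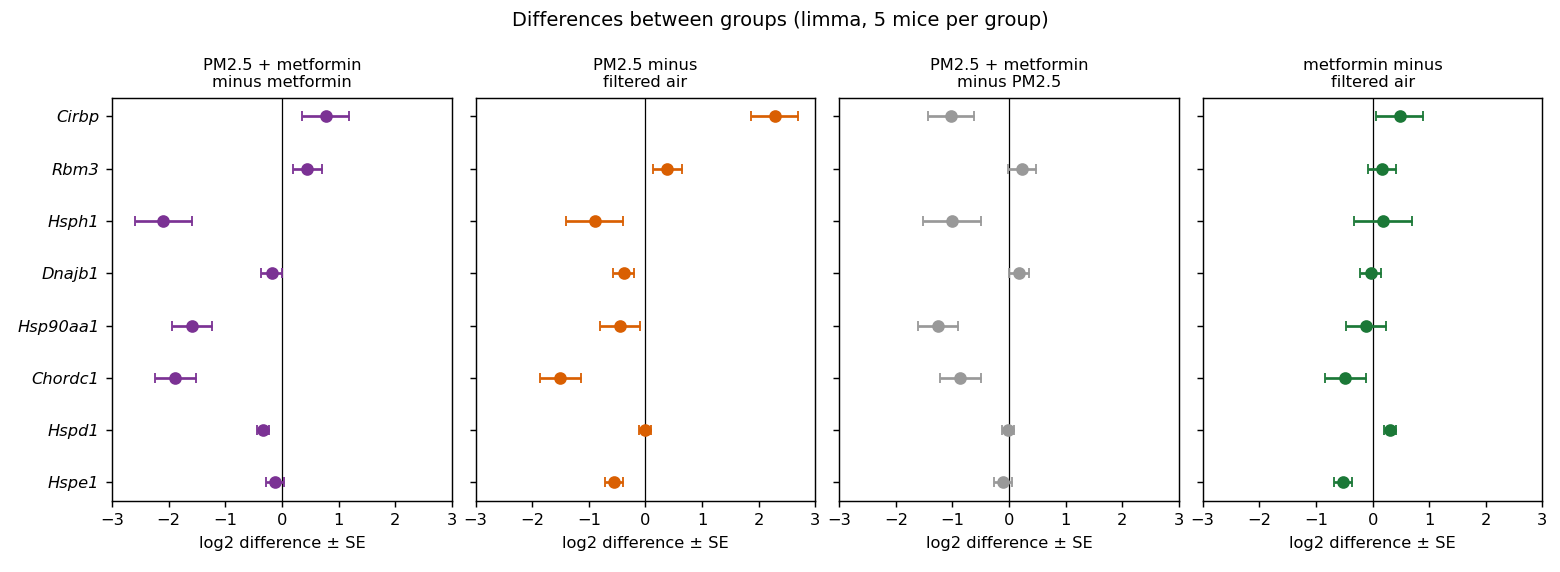
Log2 difference ± SE (horizontal axis, limma, 5 mice per group) of each gene in the 4 comparisons of groups. Hsph1, Hsp90aa1 and Chordc1 stand furthest left in the combined group against metformin, at -2.09, -1.59 and -1.88, and Cirbp furthest right with PM2.5 against filtered air, at 2.28.

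Metformin was compared with filtered air, a comparison that shares the filtered-air arrays with the one that chose the genes. Of the 8 genes, 0 passed the test in limma (2 at an unadjusted p under 0.05), beside 3.15% of all genes. Hspd1 was higher in all 5 metformin mice than in any filtered-air mouse, by 0.31 ± 0.11 on the log2 scale (adjusted p = 0.116), and such separation upward was seen for 3.18% of all genes. Hspe1 differed by -0.52 ± 0.16 (adjusted p = 0.0753). The partners of the mitochondrial chaperonin therefore had differences of opposite sign, neither past the threshold. Cirbp differed by 0.48 ± 0.41 (adjusted p = 0.571), Chordc1 by -0.48 ± 0.37 (adjusted p = 0.518) and Hsph1 by 0.19 ± 0.51 (adjusted p = 0.886). For Rbm3, Hsph1, Dnajb1 and Hsp90aa1 the sign of this difference turned in at least 1 alternative setting.

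The combined group was compared with PM2.5 alone to ask what the drug changed during particle exposure. The comparison shares the PM2.5 arrays with the one that chose the genes. Hsp90aa1 fell by 1.26 ± 0.35 on the log2 scale (2.39-fold, adjusted p = 0.0251) and was the 1 gene of 8 that passed, where 11.7% of all genes did, 4.73% as falls. It missed the threshold without combined arrays 2 and 4, at a difference of -0.73 (adjusted p = 0.326), and also without either of them alone (adjusted p = 0.0755 without mouse 2 and 0.0948 without mouse 4) or without PM2.5 mouse 1 (0.0578) or 4 (0.0614). With array weights its adjusted p was 0.0595, and with the negative-control covariate 0.433. Cirbp was lower in all 5 combined mice than in any PM2.5 mouse, at a log2 difference of -1.03 ± 0.41 (adjusted p = 0.107, interval -1.88 to -0.18). Of 10 other settings Cirbp passed in 1, with these groups fitted alone (adjusted p = 0.0466), and it passed in 0 of 10 fits with 1 mouse left out. Its adjusted p was 0.344 without combined arrays 2 and 4 and 0.402 with the negative-control covariate. Both Cirbp and Hsp90aa1 had groups that did not overlap, a downward separation shown by 1.9% of all genes. Hsph1 differed by -1.01 ± 0.51 (adjusted p = 0.208), Chordc1 by -0.86 ± 0.37 (adjusted p = 0.133) and Rbm3 by 0.23 ± 0.25 (adjusted p = 0.606). In this comparison, then, 6 of the 8 estimates lay below 0, among them those of Cirbp and the cytosolic chaperones Hsph1, Hsp90aa1 and Chordc1. The estimates of Rbm3 and of Dnajb1, another cytosolic chaperone, lay above 0 (Dnajb1 0.18 ± 0.18, limma adjusted p = 0.592).

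The interaction, the particle difference with metformin minus that without, contains the contrast that chose the genes and has no test here. It was -1.51 ± 0.58 for Cirbp, -1.19 ± 0.72 for Hsph1 and -1.15 ± 0.50 for Hsp90aa1 on the log2 scale. For Chordc1, whose particle difference was -1.88 with metformin and -1.50 without, it was -0.38 ± 0.52. The values were 0.06 ± 0.35 for Rbm3, 0.21 ± 0.26 for Dnajb1, -0.33 ± 0.15 for Hspd1 and 0.42 ± 0.23 for Hspe1.

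Kupffer cell and endothelial markers also differed between some groups. Signals of a list were summed on the linear scale and the sum given as log2, so the brightest markers weigh most. The sum of 9 Kupffer cell and macrophage markers was 12.89, 11.24, 12.45, 12.91 and 14.93 in combined mice 1 to 5, 14.20 to 14.87 in PM2.5 mice, 13.27 to 13.77 in metformin mice and 13.77 to 14.77 in filtered-air mice. That of 8 endothelial markers was 13.72, 13.05, 13.91, 13.35 and 14.74 in combined mice 1 to 5, 14.72 to 15.15 in PM2.5 mice, 14.34 to 14.87 in metformin mice and 14.60 to 15.05 in filtered-air mice. For both lists combined mice 1 to 4 lay below every mouse of the other groups, and combined mouse 5 stood apart from them, with the highest Kupffer cell sum of the study. Of these lists, 7 of 9 and 5 of 8 fell in the combined group against PM2.5, where 4.73% of all genes fell. Among them were Vsig4, by 2.51 ± 0.48, C1qb by 1.99 ± 0.44, Fcgr2b by 1.33 ± 0.24 and Clec4g by 1.51 ± 0.28. The falls were 1 of 9 and 2 of 8 without combined arrays 2 and 4, where 0.287% of all genes fell. Against metformin, Vsig4 alone of the 9 fell, by 1.59 ± 0.48, and of the endothelial markers Stab2 rose and Clec4g and Fcgr2b fell. Of all genes, 9.69% rose and 6.63% fell there. Without arrays 2 and 4, Stab2 alone of these markers passed against metformin, where 4.21% of all genes passed. Without array 5, 5 of 9 and 4 of 8 fell, where 9.85% of all genes fell. None of these markers was at or below the negative-control median. By mean signal, 6 of the 9 Kupffer cell markers and 7 of the 8 endothelial markers lay above the negative controls' 95th percentile of 8.36. Adgre1 (8.35) and Timd4 (6.48), both among the falls against PM2.5, lay below it, as did Marco (5.32) and Stab2 (8.15). The part of these markers in the differences of the chosen genes was not tested. In bulk liver fewer cells of a type and less RNA per cell cannot be told apart.

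Within groups, Cirbp was set against each of the 7 other genes, using each mouse's deviation from its group mean so that group differences did not enter. Over 20 mice Rbm3 followed Cirbp, with r = 0.81 (permutation within groups, p = 0.00734, adjusted over 7 pairs 0.0257) and rho = 0.60 (permutation p = 0.0294, adjusted 0.0687). Chordc1 went against Cirbp, with r = -0.72 (permutation p = 0.00659, adjusted 0.0257) and rho = -0.67 (permutation p = 0.0158, adjusted 0.06). These 2 pairs passed by Pearson's r, and by Spearman's rho 0 of 7 passed after adjustment and 3 before it. Without metformin mice 1 and 4, farthest from the median of Cirbp, r was 0.59 for Rbm3 and -0.61 for Chordc1.

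The relation rests largely on the metformin group. Over the 15 mice of the other groups r was 0.30 for Rbm3 (permutation p = 0.293) and -0.49 for Chordc1 (permutation p = 0.104), and 0 of 7 pairs passed by Pearson's r, adjusted or not. For Hsph1, r was -0.54 over 20 mice and -0.02 over those 15. The r for Hsp90aa1 was -0.53 over 20 mice (permutation p = 0.1, adjusted 0.176) and -0.25 over 15. Dnajb1 had an r of -0.40 (permutation p = 0.0424, adjusted 0.099), and -0.44 over 15 mice. Hspd1 and Hspe1 had r = -0.22 and r = -0.11 (adjusted p = 0.523 and 0.611). Among the chaperones the deviations of Hsph1, Hsp90aa1 and Chordc1 went together over the 20 mice, with r = 0.90 for Hsph1 and Hsp90aa1, 0.86 for Hsp90aa1 and Chordc1, and 0.83 for Hsph1 and Chordc1. These 3 values describe single mice and single liver pieces, in which each gene was read on the same array. They were not recomputed without the metformin group or without the combined arrays that stood apart. The largest deviation of each of these 3 genes was in a metformin mouse. Within the PM2.5 group, Hsph1 and Chordc1 deviated in opposite directions in some mice and in the same direction in others.

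**Figure D3:**
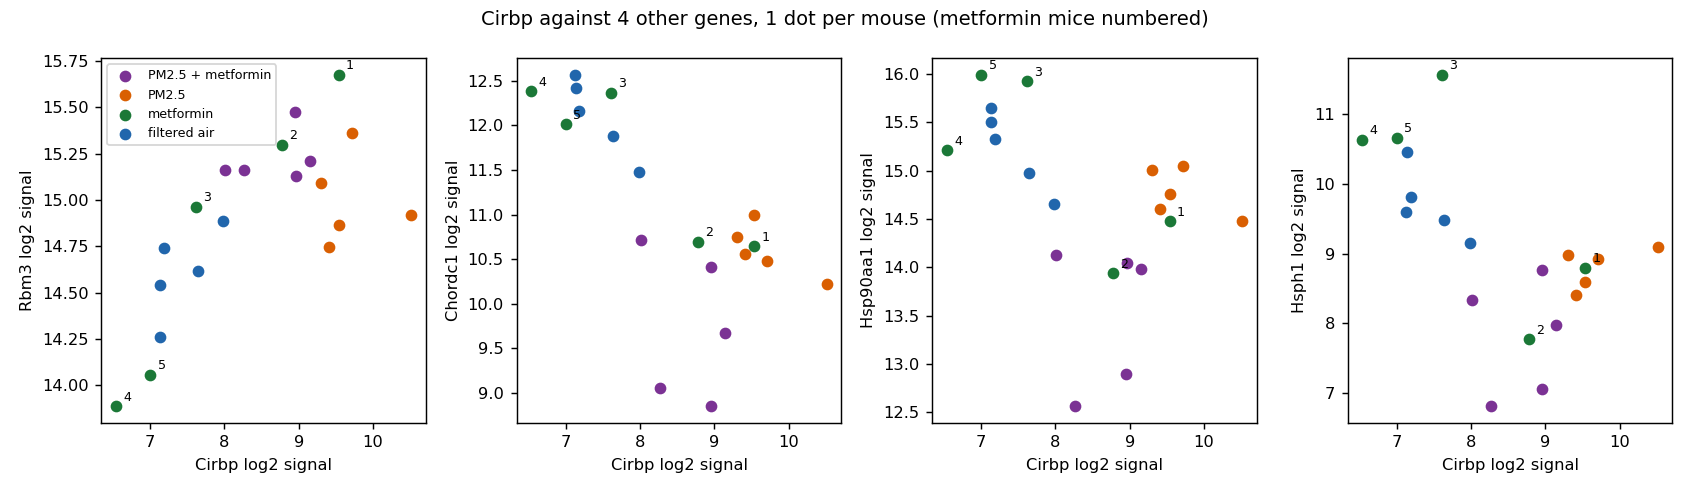
Log2 signal of Rbm3, Chordc1, Hsp90aa1 and Hsph1 (vertical axes) against that of Cirbp (horizontal axes), with 1 dot per mouse coloured by group and metformin mice numbered. Metformin mice 1 and 2 lie at high Cirbp and Rbm3 and low Chordc1, Hsp90aa1 and Hsph1, and metformin mice 4 and 5 at the opposite end.

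Over all 20 arrays, group differences included, the genes whose signal was most like that of Cirbp were Atmin (r = 0.85), Reep4 (0.85), the metallothionein gene Mt1 (0.83), the zinc exporter gene Slc30a1 (0.83) and Mt2 (0.82). Those most opposite were E2f6 (r = -0.86), Ppp1r3b (-0.86), Arhgap42 (-0.85), Kpna4 (-0.85) and Anks4b (-0.84). Among the chosen genes r with Cirbp was 0.71 for Rbm3, -0.71 for Chordc1, -0.61 for Dnajb1, -0.57 for Hsph1, -0.45 for Hspe1 and Hsp90aa1 and -0.33 for Hspd1. These values describe how signals lined up across arrays that share their groups, and have no test. Those of the chosen genes also contain the contrast that chose them, so their signs were partly set by that choice.

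The rest of the chaperone network was read from 8 lists: HSP70 and HSP110 proteins, J proteins, HSP90 and its partners, BAG proteins, small heat shock proteins, the TRiC chaperonin, mitochondrial chaperones and heat shock factors. Without the chosen genes they name 80 genes, of which 61 were tested. In the combined group against metformin 7 fell and 5 rose (19.7% of 61), where 16.3% of all genes passed, with a median difference of -0.07, against 0.02 over all genes. The falls included Ppid, an HSP90-bound prolyl isomerase, at -0.94 ± 0.22 (adjusted p = 0.00748), and Sugt1, another HSP90 co-chaperone, at -0.62 ± 0.15 (adjusted p = 0.00779). The cytosolic chaperonin subunit genes Tcp1 and Cct3 fell by 0.87 ± 0.20 and 0.67 ± 0.20 (adjusted p = 0.00719 and 0.0288). The others that fell were Hspa4l, Dnaja2 and Cdc37l1. The rises were Cdc37, the kinase-specific HSP90 co-chaperone, by 0.72 ± 0.16 (adjusted p = 0.00463), the mitochondrial HSP70 gene Hspa9 by 0.93 ± 0.25 (adjusted p = 0.0158), Hspb6, Dnajc5 and Dnajb12. Without combined arrays 2 and 4, 2 of the 61 passed, Dnajc5 and Hspb6, where 4.21% of all genes did.

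In the combined group against PM2.5, 4 of the 61 rose (Cdc37, Hspa9, Hsf2 and Dnajb2) and 4 fell (Tcp1, Dnajc7, Hspa4l and Bag5), which is 13.1%, near the 11.7% of all genes. Without combined arrays 2 and 4 limma passed 0 (8 at an unadjusted p under 0.05), where 1.74% of all genes passed. Metformin against filtered air gave 1 rise and 1 fall, or 3.28%, beside 3.15% of all genes. Fkbp5, an HSP90 partner and a known glucocorticoid target, rose by 1.12 ± 0.28 (adjusted p = 0.0331), and Hsbp1, whose product binds HSF1, fell by 0.59 ± 0.16 (adjusted p = 0.0470). With PM2.5 against filtered air, the small heat shock protein gene Hspb6 rose by 0.91 ± 0.18 (adjusted p = 0.00651) and Bag5 by 0.54 ± 0.14 (adjusted p = 0.0279), while the J protein gene Dnajb2 fell by 0.65 ± 0.14 (adjusted p = 0.0106). These 3 of 61 are 4.92%, beside 5.17% of all genes. Hspb6 also rose with PM2.5 in mice on metformin, by 0.78 ± 0.18 (adjusted p = 0.00667).

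**Figure D4:**
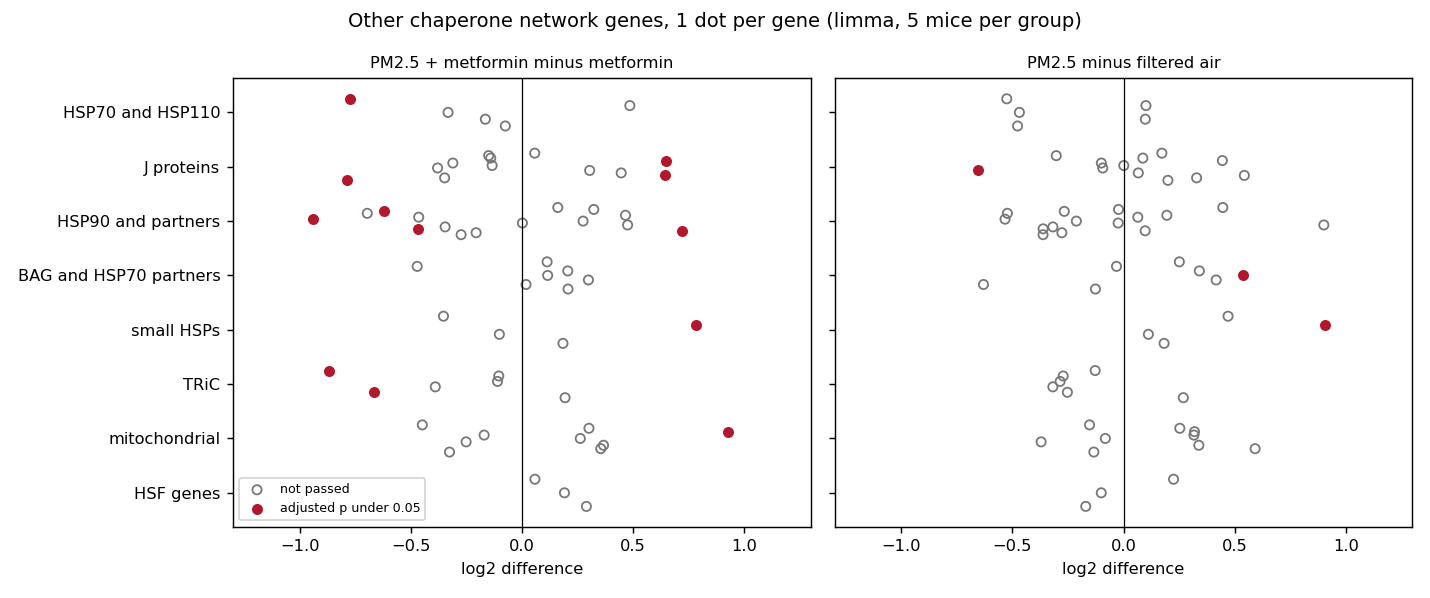
Log2 difference (horizontal axis) of the 61 other chaperone network genes, 1 dot per gene in 8 lists, for the combined group against metformin and for PM2.5 against filtered air, with filled dots for adjusted p under 0.05. On the left 7 filled dots lie below 0 and 5 above it, and on the right 1 lies below 0 and 2 above it.

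Chaperones of the endoplasmic reticulum, which answer to another stress pathway than HSF1, were listed apart. Of 14 tested, 9 fell in the combined group against metformin, where 6.63% of all genes fell. Those with the lowest p were Hspa13 (-1.31 ± 0.24, adjusted p = 0.00135), Hsp90b1 (-0.69 ± 0.15), Hspa5 (-1.02 ± 0.22) and Pdia6 (-1.11 ± 0.24). Hsp90b1 and Hspa13 also fell without combined arrays 2 and 4, 2 of 14, where 1.15% of all genes fell. With metformin against filtered air 4 rose (Herpud1, Pdia3, Calr and Dnajb11), where 3.15% of all genes passed. With PM2.5 against filtered air Herpud1 rose and Hspa13 fell, where 5.17% of all genes passed. In the combined group against PM2.5 limma passed 0 of 14 (2 at an unadjusted p under 0.05), where 11.7% of all genes passed.

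Of 14 clock genes tested, 4 passed in the combined group against metformin, where 16.3% of all genes did. Arntl, the core activator, rose by 1.70 ± 0.26 (adjusted p = 0.000583), Nfil3 by 0.99 ± 0.23 and Nr1d1 by 0.88 ± 0.25, and Nr1d2 fell by 0.65 ± 0.19. Metformin against filtered air had 4 passing genes, where 3.15% of all genes passed. Of these, Arntl fell by 1.57 ± 0.26 (adjusted p = 0.00190) and Npas2 by 1.09 ± 0.28, while Dbp rose by 1.54 ± 0.32 and Hlf by 0.80 ± 0.21. The combined group against PM2.5 also had 4, where 11.7% of all genes passed. Of these, Arntl fell by 0.96 ± 0.26 (adjusted p = 0.0221) and Npas2 by 0.90 ± 0.28, while Dbp rose by 1.89 ± 0.32 and Per3 by 1.66 ± 0.42. With PM2.5 against filtered air Arntl was the 1 gene of 14 that passed, beside 5.17% of all genes, with a rise of 1.09 ± 0.26 (adjusted p = 0.0196).

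Without combined arrays 2 and 4, Arntl (1.83, adjusted p = 0.00740) and Dbp (-1.11, adjusted p = 0.0453) passed against metformin and Dbp (1.40, adjusted p = 0.0269) against PM2.5. Of all genes, 4.21% passed against metformin and 1.74% against PM2.5 in that fit. Mean Arntl was 9.30 in the combined group, 10.25 with PM2.5, 7.59 with metformin and 9.17 in filtered air. The part of these genes in the Cirbp and chaperone differences was not tested.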

How the data were processed

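Liver RNA of 20 ob/ob mice was read on 20 arrays, 5 per group. The authors deposited log2 signals, 1 per probe set, and the submitters' processing notes name Affymetrix Expression Console. Its version and summary method are not given in the sources used here, and the series text names another array than the one the probe set identifiers belong to. Genes were taken from the platform's probe table. Of 28846 probe sets, 6640 were controls and 2634 had no gene. The 19505 genes, each at its brightest probe set, were filtered at the 40th percentile of mean signal (log2 4.05), which left 11844.

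Differences were fitted with limma 3.58.1 in R 4.3.3, as 4 group means on the 20 arrays with eBayes (residual degrees of freedom 16, prior 5.68). Tests were two-sided, with Benjamini-Hochberg adjustment over 11844 genes and a threshold of 0.05. Correlations used 100000 permutations within groups. Precision is limited by the number of arrays. The fit and the correlation were tested on simulated data. The genes, the lists and the tests were chosen with earlier results of these data known.

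Genes of the chaperone, clock and splicing lists were named where they passed, at most 4 per list and comparison by lowest p. Of the marker lists only some passing genes were named, a choice made after their values were seen. The likeness rule takes the 5 highest and 5 lowest r with Cirbp, and its part for Hspa8 was not made. Promoters came from RefSeq (GRCm38.p6), and 6 of 10 genes had a record. Other settings tried were the filter, scaling, probe set rule, array weights, eBayes options, a negative-control covariate, fits of 2 groups, and mice left out. List and promoter counts without combined arrays 2 and 4 or without array 5, and correlations without the metformin group, were added after seeing the data.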

Additional observations from a re-analysis of the deposited data

Results flagged for a closer look

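In 2 of the 32 sets of 5 values formed by the 8 genes in 4 groups, 1 mouse lay far from the others by Dixon's criterion, and chance gives about 1 in 20. Both were combined mouse 2, on an array that stood apart. Its Rbm3 was 15.48, and the gap to the next mouse was 0.773 of the group's range. Its Hspe1 was 11.20, with a gap of 0.736 of the range. The critical value for 5 is 0.71.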

How the results depend on the processing

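No paired analysis was possible because each group holds different mice, with 1 array per mouse. The combined group against metformin, with 4 of 8 genes past the threshold, gave 1 without combined arrays 2 and 4 (cause not tested), 2 with the compared groups alone, where fewer arrays are fitted, and 3 to 6 with 1 mouse left out. Chordc1 passed in all 20 settings there (adjusted p 0.000943 to 0.0453). The combined group against PM2.5, with 1 gene, gave 0 with array weights, 0 with the negative-control covariate, 0 without arrays 2 and 4, 2 with the compared groups alone and 0 to 1 with 1 mouse left out. Metformin against filtered air, with 0, gave 1 with array weights and 0 to 1 with 1 mouse left out, where leaving out filtered-air mouse 4 let Hspe1 pass (adjusted p = 0.012). For PM2.5 against filtered air, a description with no test, the count of 3 became 1 to 3. The network counts of 12 and 8 were 2 and 0 without arrays 2 and 4. The Cirbp correlations, 2 of 7, were 0 without the metformin group, where Hspd1 had r = 0.075 in place of -0.22. Signs turned for metformin against filtered air in Dnajb1 (0.054) and Hsp90aa1 (0.22) with the covariate, and with 1 mouse left out the ranges were -0.059 to 0.39 for Rbm3, -0.23 to 0.71 for Hsph1, -0.10 to 0.033 for Dnajb1 and -0.33 to 0.18 for Hsp90aa1. For Hspd1 in the combined group against PM2.5 it turned to 0.025 with quantile normalization, and the range with 1 mouse left out was -0.049 to 0.022. The cause was not tested for these. All-gene counts moved from 1933 to 1009 (covariate), 499 (without arrays 2 and 4) and 1021 (compared groups alone) against metformin, and from 1383 to 79, 206 and 509 against PM2.5. Metformin against filtered air, at 373, gave 854 with array weights and 147 with the covariate. PM2.5 against filtered air, at 612, gave 1376 and, without arrays 2 and 4, 938. With 1 mouse left out the all-gene counts ran from 1138 (combined mouse 4) to 2407 (combined mouse 5) against metformin, from 637 (combined mouse 4) to 2143 (combined mouse 5) against PM2.5, from 157 (metformin mouse 3) to 432 (filtered-air mouse 4) for metformin and from 208 (PM2.5 mouse 2) to 725 (PM2.5 mouse 1) for PM2.5 against filtered air. Low Cirbp, low Hsph1 and all Dnajb1 signals lay near background, which limits their differences.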

Other observations

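Other genes with the same promoter letters were counted apart from the chosen genes. Of 58 other tested genes with a heat shock element of 3 units, 5 rose (8.62%) and 1 fell (1.72%) in the combined group against metformin, beside 9.96% and 6.56% of the 9631 tested genes with a promoter record. Without combined arrays 2 and 4 limma passed 0 of these 58 (9 at an unadjusted p under 0.05), beside 3.2% rising and 1.21% falling. With PM2.5 against filtered air 2 rose and 2 fell (3.45% each), beside 2.7% and 2.52%. Of 976 other genes with the letters of the cold element, 12.5% rose and 7.68% fell in the combined group against metformin, 4.61% and 1.43% without arrays 2 and 4, and 3.28% rose and 2.15% fell with PM2.5 against filtered air.

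Among splicing factors linked to temperature, Srsf2 rose in the combined group against metformin by 0.62 ± 0.16 on the log2 scale (limma, adjusted p = 0.013) and against PM2.5 by 0.52 ± 0.16 (adjusted p = 0.0411). The kinase gene Clk3 rose against metformin by 0.47 ± 0.14 (adjusted p = 0.0258). Without combined arrays 2 and 4, Clk3 still rose (0.58, adjusted p = 0.0346), while Srsf2 missed the threshold (adjusted p = 0.0702 against metformin and 0.187 against PM2.5). The list names 12 genes, of which 9 were tested. With all arrays, 16.3% of all genes passed against metformin and 11.7% against PM2.5.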
